A study of Mus musculus with 12 samples.

Results

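Galectins are a family of lectins that bind β-galactosides, and the genes described here are *Lgals1*, *Lgals2*, *Lgals3*, *Lgals4*, *Lgals8* and *Lgals9*, together with *Lgals3bp*, which encodes a secreted glycoprotein that galectins bind. The members were listed by name, and 7 of 7 were found among the 15687 genes measured. They were measured by RNA sequencing in 12 subcutaneous tumors of mTc11, a mouse lung cancer line. The 6 CTL tumors (genotype labelled WT) came from cells with a scrambled shRNA and the 6 *Filip1l*-knockdown (KD) tumors from cells with an shRNA against *Filip1l*, in both cases mixed clones after puromycin selection. All cells were injected into male C57BL6/J hosts that were 8 weeks old, and the tumors were removed after 24 days. Which shRNA construct the sequenced KD tumors carried is not given in the sources used here. The p-values and intervals below take tumors as replicates, so they do not measure the spread among separately made knockdown lines. Any other difference between the injected CTL and KD cells cannot be told apart from the knockdown. Each tumor also holds the host's own stroma, vessels and immune cells, so a gene's value is the sum over all of these. In bulk tumors fewer cells of a type and less RNA per cell cannot be told apart.

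Galectins lack a signal peptide and leave cells by a route that bypasses the Golgi. Outside the cell they cross-link glycoproteins that carry N-acetyllactosamine, and inside it some of them mark damaged endosomes. The family is grouped by architecture into prototype galectins with a single carbohydrate recognition domain (*Lgals1*, *Lgals2*), a chimera galectin with a collagen-like tail (*Lgals3*) and tandem-repeat galectins (*Lgals4*, *Lgals8*, *Lgals9*). *Lgals2* and *Lgals4* are known from the epithelium of the digestive tract, *Lgals1* from mesenchymal and malignant cells, and *Lgals9* and *Lgals3bp* as genes that interferon can induce.

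The promoters of the members that moved most, and of the members known as interferon-inducible, are shown so that the letters can be read beside the values. RefSeq promoter windows on GRCm38.p6 (250 bases before to 50 after the start) matched 6 of the 7 members, all but *Lgals1*. The motifs were picked after the sequences and values had been seen, and a match is a description of letters only. They were searched on both strands, as CAAAGTCC for HNF4, TTTATG for CDX, AANNGAAA for interferon regulatory factors and the same letters preceded by GA for the interferon-stimulated response element, so that the last of these overlaps AANNGAAA. Positions count from the RefSeq start, and capitals mark the matches.
Lgals2, 250 bases before the start, chr15:78855530-78855779, minus strand: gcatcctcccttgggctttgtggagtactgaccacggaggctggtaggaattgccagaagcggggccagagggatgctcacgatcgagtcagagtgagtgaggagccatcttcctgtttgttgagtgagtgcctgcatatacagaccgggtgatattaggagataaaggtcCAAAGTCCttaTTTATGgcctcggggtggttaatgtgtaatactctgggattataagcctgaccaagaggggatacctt
Lgals4, 250 bases before the start, chr7:28833544-28833793, plus strand: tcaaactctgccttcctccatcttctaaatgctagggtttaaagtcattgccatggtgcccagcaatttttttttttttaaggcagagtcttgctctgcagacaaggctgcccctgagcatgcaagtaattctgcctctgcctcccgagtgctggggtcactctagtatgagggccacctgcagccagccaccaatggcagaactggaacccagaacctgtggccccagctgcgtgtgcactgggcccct
Lgals9, 30 bases around a response element, chr11:78984960-78984989, minus strand: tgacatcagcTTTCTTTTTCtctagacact
Lgals3bp, 30 bases around the start, chr11:118401954-118401983, minus strand: gttttctgaaAATCGAAActaggtgaggtt
The *Lgals2* window held CAAAGTCC from -79 to -72 and TTTATG from -68 to -63, which occur in 1.42% and 11.9% of the 32851 RefSeq promoter windows. The *Lgals4* window held none of the 4 motifs, and its start was the only one of the 6 whose first 20 bases were not found in a GENCODE transcript. *Lgals9* held the response element on the opposite strand from -55 to -46 and again from 16 to 25 after the start, a motif in 3.44% of windows, and AANNGAAA alone from -151 to -144. *Lgals3bp* held AANNGAAA from -14 to -7, a motif in 23.9% of windows, and the *Lgals3* and *Lgals8* windows held none of the 4.

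Values are normalized counts as the authors deposited them, that is, reads per gene scaled by a size factor for each tumor. Dividing each tumor's values by their smallest step gave an estimated 17834745 to 29502069 reads on the listed genes in 4 CTL tumors and 26046737 to 32419578 in 5 KD tumors, while in CTL replicates 1 and 4 and KD replicate 1 the step was too close to 1 for such an estimate. *Filip1l* itself averaged 2311 ± 211 normalized counts in the CTL group and 1924 ± 165 in the KD group (SD, n = 6 each), that is -0.26 on the log2 scale with overlapping groups (limma adjusted p = 0.00998). KD replicate 1 stood apart from the other 5 KD tumors. Its summed normalized counts over 10 fibroblast markers were 265183, against 81127 to 173987 in the others, and over 11 macrophage markers 67838, against 25517 to 38795. *Lyz2* alone gave 40989.8 of that macrophage sum. Its sum over 6 epithelial markers was the lowest of the KD group, 215093 against 293963 to 394086. Each change of a member is therefore also given without this tumor.

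All 7 members passed an adjusted p under 0.05 in a limma fit over all genes, 6 of them higher and 1 lower in KD tumors. Over all genes 41.9% passed this threshold, 21.1% higher and 20.7% lower. The median log2 fold change (KD minus CTL) was 0.51 over the members and 0.01 over all genes. With a log2 fold change over 1 as well, the threshold for a called gene, 3 members were called, *Lgals2*, *Lgals4* and *Lgals3*, all higher, where 10.2% of all genes were called, 6.2% higher and 3.97% lower. In 4 members the CTL and KD tumors did not overlap, *Lgals1* to *Lgals4*, as in 21.5% of all genes.

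**Figure D1:**
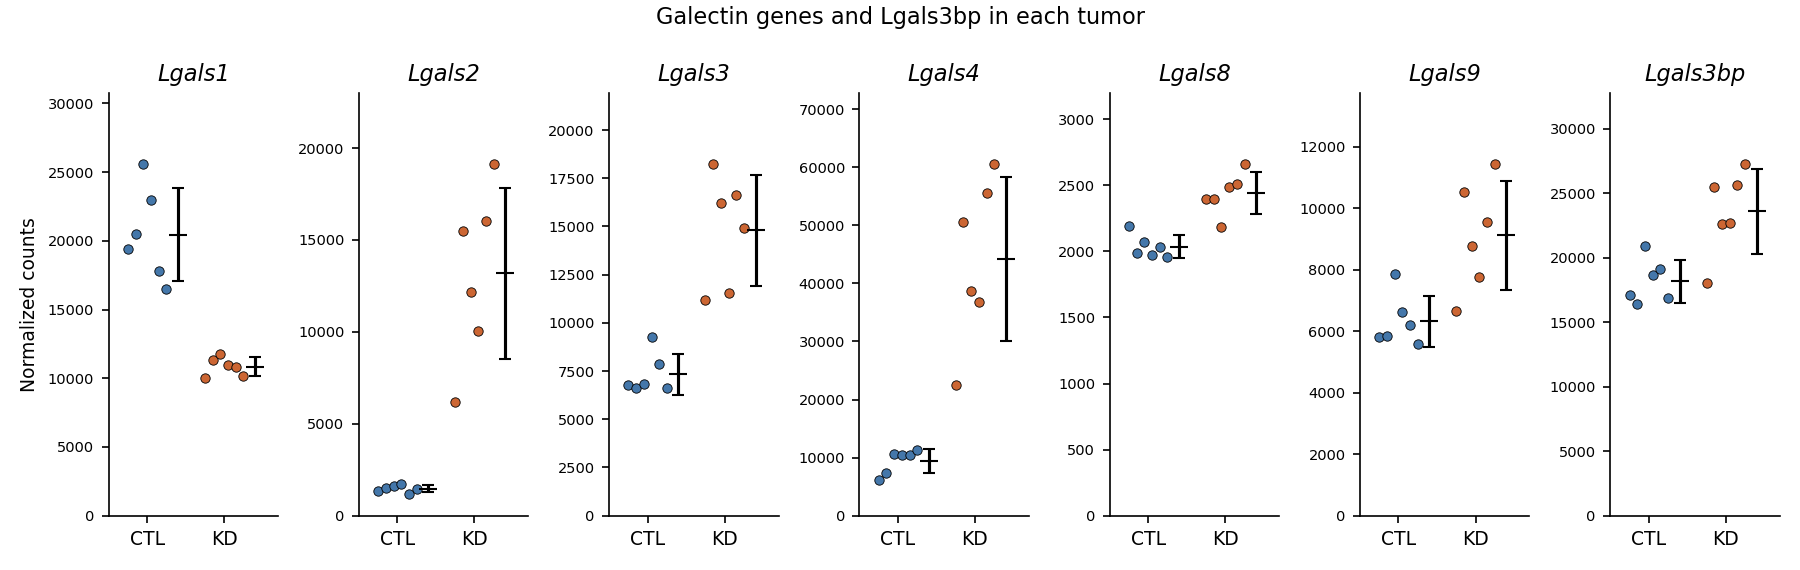
Normalized counts (linear axes from 0, a separate scale for each gene) of the 7 members in each of the 6 CTL (blue) and 6 KD (orange) tumors, in the order of the replicate number, with the group mean and SD as a black bar. The KD tumors lie above all CTL tumors in *Lgals2*, *Lgals3* and *Lgals4* and below all of them in *Lgals1*, and the groups overlap in *Lgals8*, *Lgals9* and *Lgals3bp*.

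Among the prototype galectins, *Lgals2* (ENSMUSG00000043501) rose and *Lgals1* fell. CTL tumors had 1196 normalized counts at the lowest, 1459 at the median and 1738 at the highest, and KD tumors had 6176, 13834 and 19141. The lowest KD tumor, replicate 1, was thus still well above the highest CTL tumor. The group means were 1471 ± 196 and 13183 ± 4668 (SD, n = 6 each), and their log2 difference in the fit was 3.08 ± 0.22 (SE), with an adjusted p of 1.69e-07 by limma. This is 8.48-fold with a 95% interval of 6.14 to 11.7. By exact permutation of the labels (two-sided) p was 0.00216, the smallest value that 6 against 6 tumors allow. Without KD replicate 1 the log2 fold change of *Lgals2* was 3.28. In the order of all 15687 genes by their rise, *Lgals2* stood at 123. The relative spread was wider among KD than among CTL tumors, with a coefficient of variation of 35.4% against 13.4%.

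*Lgals1* (ENSMUSG00000068220) was the member that fell. It had 16475 normalized counts at the lowest, 19959 at the median and 25603 at the highest in CTL tumors, and 10037, 10888 and 11791 in KD tumors. Every KD tumor lay below every CTL tumor. The means were 20462 ± 3369 and 10855 ± 673 (SD, n = 6 each), so that the log2 fold change was -0.90 ± 0.10 (SE), with an adjusted p of 5.31e-06 by limma and an exact permutation p of 0.00216, and a level 1.87-fold higher in CTL tumors. This change did not reach the fold threshold for a call, in the 12-tumor fit or in any of the alternatives, and was -0.88 without KD replicate 1. Here the spread was narrower in the KD group, with a coefficient of variation of 6.20% against 16.5%. *Lgals1* was lowest in KD replicate 1, the KD tumor with the highest sum of fibroblast markers. The part of fibroblasts in the *Lgals1* values was not tested.

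Both prototype genes lie on chromosome 15 of GRCm38 in GENCODE vM21, *Lgals2* from 78850860 to 78855529 on the minus strand and *Lgals1* from 78926725 to 78930465 on the plus strand, 71195 bases apart. The neighbours were looked up after these values were seen. *Gga1*, a clathrin adaptor gene between them, had a log2 fold change of 0.01 (limma adjusted p = 0.888), and *Sh3bp1*, a GTPase regulator gene also between them, fell by 0.52 (limma adjusted p = 1.15e-05). *Cdc42ep1*, which overlaps *Lgals2*, fell by 0.68 on the log2 scale (limma adjusted p = 7.45e-06). The library kit as described does not mark strand, so reads in the overlap of *Lgals2* and *Cdc42ep1* cannot be assigned by strand. Processed pseudogenes of *Lgals1* are annotated on chromosomes 15 and 17, and neither is among the genes measured.

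*Lgals3* (ENSMUSG00000050335), the chimera galectin, is known in both epithelial cells and macrophages. CTL tumors had 6605 normalized counts at the lowest, 6802 at the median and 9288 at the highest, and KD tumors had 11187, 15568 and 18248. The groups did not overlap, and KD replicates 1 and 4 were the lowest of the KD group. The means were 7326 ± 1067 and 14795 ± 2863 (SD, n = 6 each). On the log2 scale this was 1.00 ± 0.13 (SE), with an adjusted p of 2.65e-05 by limma and an exact permutation p of 0.00216. The value lies at the fold threshold, so the call of *Lgals3* turned on small shifts. When each tumor was omitted in turn the call was lost 8 of 12 times, and the change lay between 0.94 (without KD replicate 2) and 1.08 (without KD replicate 1). *Lgals3* lies on chromosome 14 (47367751 to 47386160, plus strand), where the median gene was shifted by 0.38 on the log2 scale in KD tumors. With chromosome medians removed its log2 fold change was 0.62 (limma adjusted p = 0.00139), higher but not called.

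**Figure D2:**
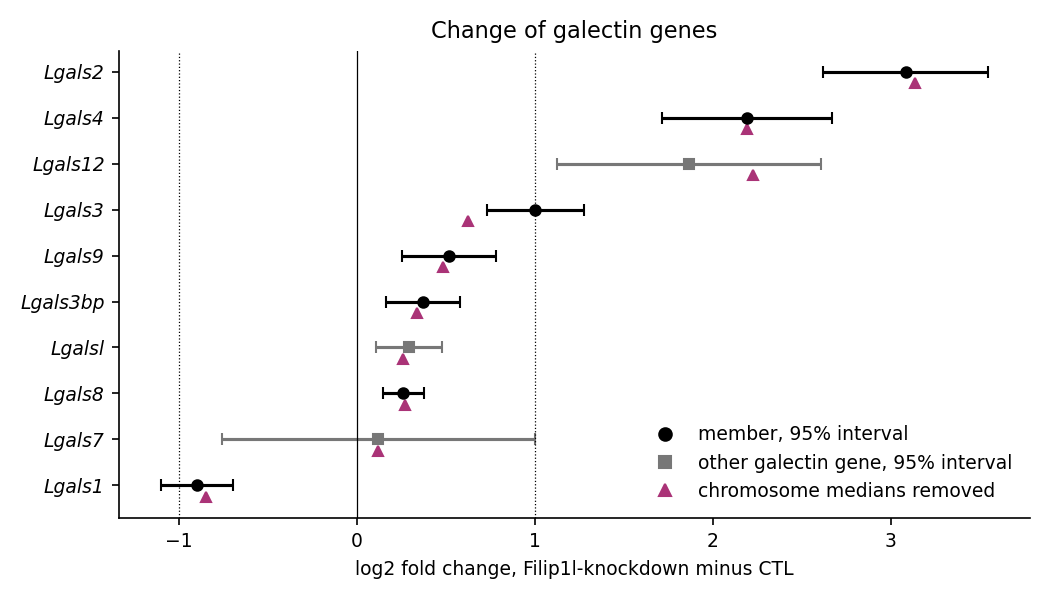
Log2 fold change (KD minus CTL, 6 tumors each) with its 95% interval from limma for the 7 members (black circles) and the other 3 galectin genes measured (grey squares), with the value after removal of chromosome medians (triangles) and dotted lines at the fold thresholds. *Lgals2*, *Lgals4* and *Lgals12* stay above 1 on both scales, *Lgals3* moves from 1.00 to 0.62, and *Lgals1* is the one gene below 0.

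Among the tandem-repeat galectins, *Lgals4* (ENSMUSG00000053964) was the most abundant and rose most. In CTL tumors it had 6128 normalized counts at the lowest, 10454 at the median and 11312 at the highest, and in KD tumors 22477, 44631 and 60575. The lowest KD tumor, replicate 1, was above the highest CTL tumor, and the other 5 KD tumors ranged higher still. With means of 9402 ± 2111 and 44131 ± 14103 (SD, n = 6 each), the log2 fold change was 2.19 ± 0.22 (SE), with an adjusted p of 3.87e-06 by limma and an exact permutation p of 0.00216. This is 4.57-fold with a 95% interval of 3.28 to 6.37. Without KD replicate 1 the log2 fold change of *Lgals4* was 2.37. By mean normalized count over all tumors *Lgals4* was gene 93 of 15687, the highest of the members, a position that gene length also enters. It lies on chromosome 7 (28833854 to 28841708, plus strand), where the median gene was shifted by 0.00.

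*Lgals9* (ENSMUSG00000001123), whose protein is a ligand of the inhibitory receptor TIM-3, rose by less. Its normalized counts were 5575 at the lowest, 6034 at the median and 7851 at the highest in CTL tumors, and 6649.8, 9163 and 11438 in KD tumors. The groups overlapped, with 4 of 6 KD tumors above the highest CTL tumor and 6 of 6 above the CTL median. The log2 fold change was 0.51 ± 0.12 (SE), with an adjusted p of 0.00389 by limma and an exact permutation p of 0.00866. Without KD replicate 1 it was 0.60.

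*Lgals8* (ENSMUSG00000057554), whose protein binds damaged endosomes and lysosomes, had the smallest change of the members, with a coefficient of variation of 4.30% in CTL and 6.50% in KD tumors. CTL tumors had 1955 normalized counts at the lowest, 2011 at the median and 2192 at the highest, and KD tumors had 2184, 2444 and 2662. The ranges met only at KD replicate 3 and CTL replicate 1, and 5 of 6 KD tumors lay above the highest CTL tumor. The log2 fold change was 0.26 ± 0.05 (SE), with an adjusted p of 0.00135 by limma and an exact permutation p of 0.00433, and it was 0.26 without KD replicate 1 as well. *Heatr1*, which overlaps *Lgals8* on chromosome 13 and is named here after its value was seen, had a log2 fold change of -0.16 (limma adjusted p = 0.115).

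*Lgals3bp* (ENSMUSG00000033880) was already among the most abundant members in CTL tumors. Its normalized counts were 16404 at the lowest, 17884 at the median and 20879 at the highest in CTL tumors, and 18005, 24079.6 and 27276 in KD tumors. Only KD replicate 1 lay within the CTL range. The log2 fold change was 0.37 ± 0.10 (SE), with an adjusted p of 0.00666 by limma and an exact permutation p of 0.00866. Without KD replicate 1 it was 0.45.

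Of 5 other galectin genes 3 were measured. *Lgals12*, a galectin known from adipocytes, averaged 26.3 ± 17.1 normalized counts (SD) in the 6 CTL tumors and 88.2 ± 24.2 in the 6 KD tumors. It rose by 1.87 on the log2 scale (limma adjusted p = 0.000624), and the groups only just separated, 57.3 at the highest in CTL and 57.5 at the lowest in KD tumors. On the summed adipocyte markers, of which 4 of 6 were measured, CTL tumors ranged from 202 to 446 normalized counts and KD tumors from 421 to 837. Their part in the *Lgals12* value was not tested. *Lgalsl*, a galectin-related gene whose product lacks lectin activity, rose by 0.29 (limma adjusted p = 0.0143). *Lgals7*, known from stratified epithelium, had 62.2 ± 40.8 and 60.4 ± 25.9 normalized counts, and its log2 fold change of 0.12 (limma adjusted p = 0.845, exact permutation p = 0.797) had the opposite sign to the difference of the means. It lies 22144 bases beyond *Lgals4*. *Lgals6* and *Grifin* were not among the genes measured.

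Levels of different genes were compared per kilobase of exon. In CTL tumors *Lgals1* was the highest of the members, with 22660 ± 3731 normalized counts per kilobase, more than *Lgals3bp* (6382 ± 594), *Lgals4* (4061 ± 912), *Lgals3* (3943 ± 574), *Lgals9* (2957 ± 390.4), *Lgals2* (2484 ± 332) and *Lgals8* (552 ± 23.7). From *Lgals4* to *Lgals2* in this order, the range over tumors of each gene overlapped that of the next. In KD tumors the order was *Lgals2* (22269 ± 7885), *Lgals4* (19063 ± 6092), *Lgals1* (12021 ± 746), *Lgals3bp* (8293 ± 1155), *Lgals3* (7963 ± 1541), *Lgals9* (4265 ± 827) and *Lgals8* (661 ± 43.0). The ranges of *Lgals2*, *Lgals4* and *Lgals1* overlapped, as did those of *Lgals3bp* and *Lgals3*. *Lgals2* with *Lgals4*, and *Lgals3bp* with *Lgals3*, changed places when the length of the longest transcript was used. *Lgals1* was the highest member in CTL tumors and *Lgals8* the lowest in both groups by either length.

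The 6 galectins summed to 36657 ± 4737 normalized counts per kilobase in CTL tumors and 66242 ± 16013 in KD tumors. *Lgals1* made up 61.6% ± 3.61 of this sum in CTL tumors and 19.1% ± 4.99 in KD tumors. The shares of *Lgals2* and *Lgals4* went the other way, from 6.79% ± 0.57 to 32.7% ± 4.49 and from 11.1% ± 2.67 to 28.3% ± 2.91. *Lgals3* kept a like share, 10.8% ± 1.44 and 12.3% ± 1.84. Per kilobase, the ratio of *Lgals4* to *Lgals1* ranged from 0.123 to 0.268 in CTL tumors and from 0.873 to 2.32 in KD tumors. The same ratio for *Lgals2* ranged from 0.0974 to 0.133 and from 0.939 to 2.87. These values depend on the length used. By the longest transcript, *Lgals2* made up 5.57% of the sum in CTL and 25.6% in KD tumors, and *Lgals4* 15.2% and 37.0%. The ratio of *Lgals4* to *Lgals1* then ranged from 0.183 to 0.397 in CTL tumors and from 1.29 to 3.44 in KD tumors. Shares of a sum are not independent of each other, and no test was made on them.

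**Figure D3:**
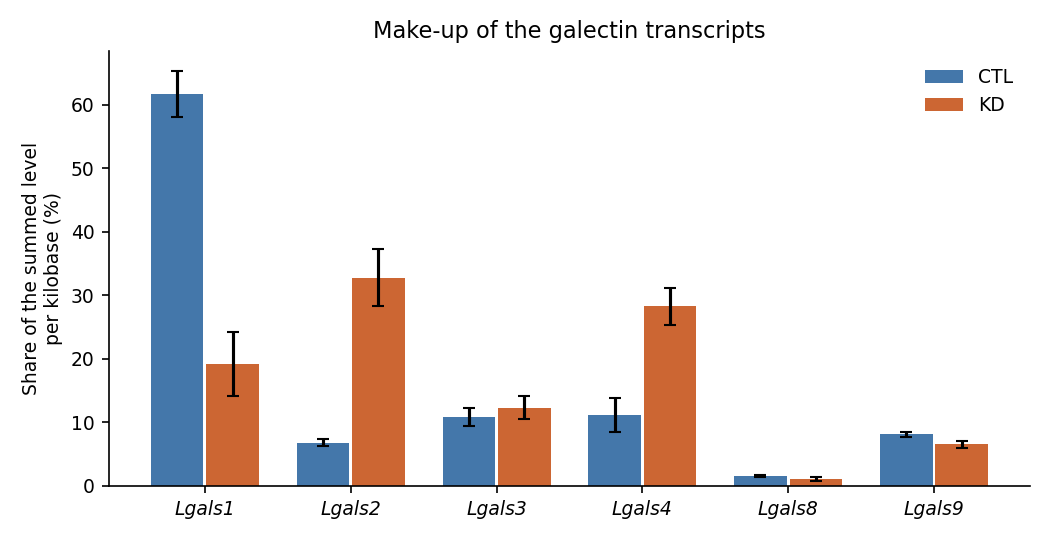
Share (%) of each galectin in the level per kilobase of exon summed over the 6 galectins, as the mean of 6 CTL (blue) and 6 KD (orange) tumors with the SD as error bar. *Lgals1* is 61.6% of the sum in CTL tumors and 19.1% in KD tumors, while *Lgals2* and *Lgals4* together take most of the KD bars' height.

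After removal of the group means, most pairs of members were positively correlated among the 12 tumors. Of 21 pairs of members, 19 had a positive Pearson correlation, with a median of 0.481, and 0.427 without KD replicate 1. The same was not worked out for pairs of other genes, so this count does not set the members apart. The closest pairs were *Lgals9* with *Lgals3bp* (0.939, and 0.908 without that tumor), *Lgals2* with *Lgals9* (0.870 and 0.789) and *Lgals4* with *Lgals3bp* (0.858 and 0.712). *Lgals2* and *Lgals4* gave 0.824, and 0.62 without it. The points share the composition of the tumor and its depth, and *Lgals1*, *Lgals2*, *Lgals3*, *Lgals4*, *Lgals9* and *Lgals3bp* were all lowest within the KD group in replicate 1. The pairs with *Lgals8* had correlations from -0.196 to 0.353 and those with *Lgals1* from -0.140 to 0.481.

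Among the 12888 genes that averaged 50 normalized counts or more, those whose variation within groups was most like that of *Lgals2* included *Fh1* (Pearson correlation 0.971), which encodes fumarate hydratase, and *Arpc5* (0.962), which encodes a subunit of an actin-nucleating complex, over 12 tumors. For *Lgals4* they were *Ei24* (0.978), *Gmds* (0.972), which encodes an enzyme of GDP-fucose synthesis, and *Perp* (0.971), a desmosome gene. *Lgals9* was closest to *Psma5*, *Sdhc* and *Cox7b*, *Lgals3bp* to genes that included *Eci1* and *Dll1*, and *Lgals3* to *Med21*, *Tymp* and *Smim11*. *Lgals1* was closest to *Lmf2*, *Mrpl55* and *Mtch1*, and *Lgals8* to *L3mbtl2*, *C2cd4c* and *Urah*. Across the genes named here the correlations were 0.852 to 0.978, and 0.854 to 0.961 without KD replicate 1. These genes were picked as the highest of 12888 over only 12 tumors. No chance level was worked out, so the correlations are a description only.

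Of 19 genes for proteins that galectins bind, 18 were measured. Of these 3 were higher and 6 lower at an adjusted p under 0.05, and the median log2 fold change was -0.05. Over all genes 21.1% were higher and 20.7% lower at that threshold, and 10.2% were called. *Nrp1*, which encodes a receptor that galectin-1 binds, was the only one called. It had 3460.3 ± 239 normalized counts in the CTL group against 1537 ± 184 in the KD group (SD, n = 6 each). This was -1.18 on the log2 scale (limma adjusted p = 1.07e-07). *Nrp1* lies on chromosome 8, where the median gene was shifted by -0.20. With chromosome medians removed *Nrp1* was at -0.98 (limma adjusted p = 8.80e-07), just short of the fold threshold. The adhesion receptor genes *Alcam*, *Itga5* and *Itgb1*, named after their values were seen, were among the lower ones. They had log2 fold changes of -0.67, -0.42 and -0.35 (limma adjusted p = 1.69e-06, 0.00343 and 0.000258). The 3 higher genes were *Egfr*, *P4hb* and *Trim16*, at 0.52, 0.46 and 0.20. The immune and adhesion receptors named next did not pass the test. *Havcr2*, which encodes TIM-3, had a log2 fold change of -0.26 (limma adjusted p = 0.201) and *Lag3*, an inhibitory receptor of T cells, -0.08 (0.804). *Ptprc*, which encodes CD45, had 0.23 (limma adjusted p = 0.388), *Mertk*, a receptor for apoptotic cells, 0.01 (0.968), and *Cd44*, a hyaluronan receptor, 0.15 (0.0636). *Havcr2* and *Ptprc* were highest in KD replicate 1, at 412 and 2464 normalized counts.

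The 12 genes of N-acetyllactosamine synthesis, the enzymes that build the glycans galectins bind, were all measured. None was called by limma, although 3 were higher and 3 lower at an adjusted p under 0.05, and 6 had an unadjusted p under 0.05. Over all genes 10.2% were called and 41.9% had an adjusted p under 0.05. By edgeR on the reads of 9 tumors 0 were called. *St6gal1*, which adds the α2,6-sialic acid that blocks galectin-1, fell by 0.35 (limma adjusted p = 0.00210). *Mgat5*, a branching enzyme, had a log2 fold change of -0.11 (limma adjusted p = 0.256). The others that passed are named after their values were seen. *Mgat4a*, *Man2a1* and *B3gnt3* rose by 0.89, 0.43 and 0.37 (limma adjusted p = 3.62e-06, 0.00111 and 0.0157). *Man2a2* and *B4galt1* fell by 0.65 and 0.18 (limma adjusted p = 0.00135 and 0.0295).

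Interferon-stimulated genes were counted beside *Lgals9* and *Lgals3bp*. Of 22 genes, all measured, 14 were higher and 0 lower at an adjusted p under 0.05 by limma. Of these 4 were called higher, and the median log2 fold change of the list was 0.58. Over all genes 21.1% were higher and 20.7% lower at that threshold, and 6.2% were called higher. *Mx1*, an antiviral GTPase gene, rose by 2.32 (limma adjusted p = 3.27e-06), *Irf7*, an interferon regulatory factor gene, by 1.14 (0.000486) and *Rsad2*, an antiviral enzyme gene, by 1.10 (4.04e-05). *Isg15*, a ubiquitin-like modifier gene, rose by 0.60 (limma adjusted p = 0.0183). *Irf1* and *Irf8*, named after their values were seen, had log2 fold changes of -0.03 (limma adjusted p = 0.841) and 0.91 (0.000291).

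Markers of intestinal epithelium moved in the direction of *Lgals2* and *Lgals4*. Of 16 markers 15 were measured, 12 of which were called higher and 0 lower by limma, with a median log2 fold change of 2.46. Over all genes 6.2% were called higher and 3.97% lower. *Cdh17*, an intestinal cadherin gene, rose by 2.46 (limma adjusted p = 2.31e-07) and *Krt20*, a keratin of differentiated intestinal cells, by 1.49 (0.000152), while *Hnf4a*, a factor of gut and liver, had a log2 fold change of 0.14 (0.152). Other factors, looked at after the promoter letters were seen, were *Cdx2* with 2.15 (limma adjusted p = 1.24e-07) and *Hnf4g* with 2.09 (2.23e-06). The summed intestinal markers lay between 16287 and 22553 normalized counts in the CTL group and between 41549 and 70594 in the KD group, lowest in KD replicate 1. Their part in the *Lgals2* and *Lgals4* values was not tested.

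**Figure D4:**
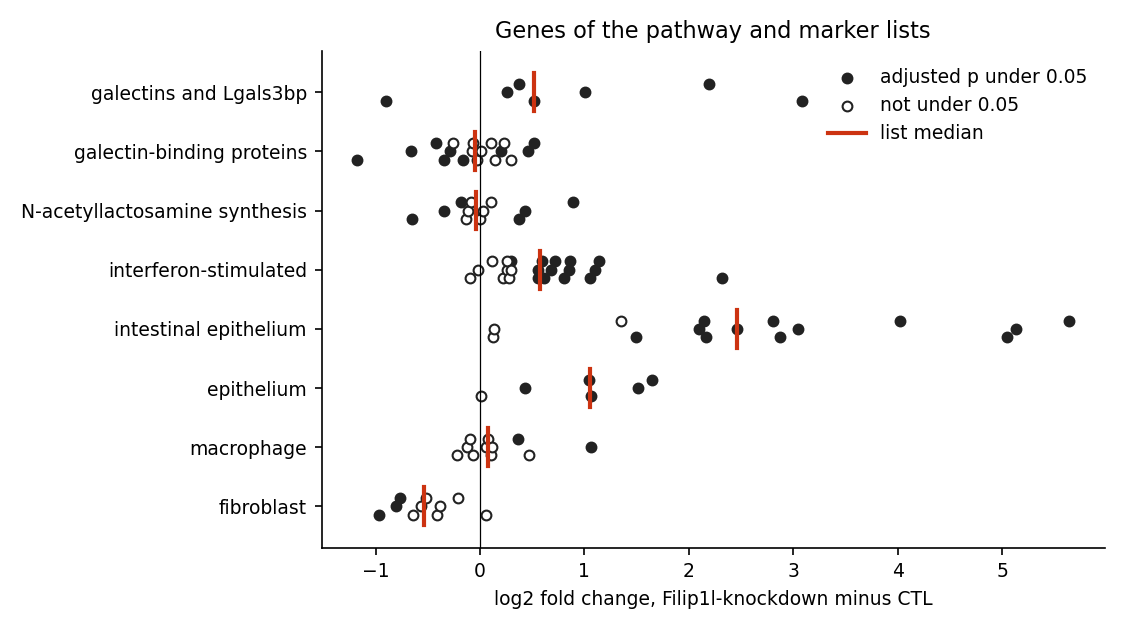
Log2 fold change (KD minus CTL, 6 tumors each) of each measured gene in 8 lists, filled where the limma adjusted p was under 0.05, with the list median as a red bar. The 7 members spread from -0.90 to 3.08, the galectin-binding and N-acetyllactosamine lists centre near 0, and the interferon-stimulated, intestinal and epithelial lists have medians of 0.58, 2.46 and 1.06.

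Of 6 general epithelial markers 5 were higher at an adjusted p under 0.05 and 4 were called higher, with a median log2 fold change of 1.06. Over all genes 21.1% were higher at that threshold, 6.2% were called higher and 3.97% called lower. *Krt8*, *Krt18* and *Krt19*, keratins of simple epithelium, rose by 1.06, 0.44 and 1.65 (limma adjusted p = 0.000114, 0.0122 and 1.15e-05). *Cdh1*, named after its value was seen, did not pass, with a log2 fold change of 0.01 (limma adjusted p = 0.950). The summed epithelial markers lay between 149310 and 196100.4 normalized counts in the CTL group and between 215093 and 394086 in the KD group. Gastric markers were mixed, 3 of 9 called higher and 1 lower, with *Vsig1* at -0.20 (limma adjusted p = 0.167), *Tff2* at -2.72 (0.000358) and *Anxa10* at 1.14 (0.00213). Of 11 lung markers 8 were measured, 1 called higher and 1 lower, with *Abca3* and *Napsa* higher by 0.73 and 0.88 (limma adjusted p = 3.92e-06 and 0.00248) and *Sftpd* at 0.34 (0.336). The 2 lung calls became 1 without any of CTL replicates 2, 3, 4 and 6 or KD replicates 2, 3, 5 and 6, and 4 without KD replicate 4. *Sftpa1*, *Scgb1a1* and *Scgb3a2* were not among the genes measured.

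Stromal markers were given for *Lgals1* and *Lgals3*. None of 10 fibroblast markers was called by limma, and 3 were lower and 0 higher at an adjusted p under 0.05. An unadjusted p under 0.05 was found for 4, and the median log2 fold change was -0.54. Over all genes 10.2% were called, and 21.1% were higher and 20.7% lower at an adjusted p under 0.05. By edgeR on the reads of 9 tumors 3 fibroblast markers were called, while limma called 2 without KD replicate 1 and 1 without CTL replicate 4 or 5 or KD replicate 3. *Col1a1* and *Col1a2*, the type I collagen genes, fell by 0.76 and 0.97 (limma adjusted p = 0.0108 and 0.00626), and *Col3a1* had -0.52 (0.114). The summed fibroblast markers lay between 172163 and 287927 normalized counts in the CTL group and between 81127 and 265183 in the KD group. These 3 collagen genes had the highest means of the list and weigh most in this sum. Of 11 macrophage markers 2 passed an adjusted p under 0.05 and 1 was called higher, a call lost without CTL replicate 3 or 5 or KD replicate 3. The macrophage sums ranged from 28655 to 38938 in CTL and from 25517 to 67838 in KD tumors. *Lyz2*, *C1qa* and *C1qb*, the macrophage markers with the highest means, had log2 fold changes of 0.08, -0.12 and -0.07 (limma adjusted p = 0.855, 0.504 and 0.744). The part of these cells in the *Lgals1*, *Lgals3* and *Lgals9* values was not tested.

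Other host cells were counted too. Over all genes 10.2% were called, 6.2% higher, and 21.1% were higher at an adjusted p under 0.05. Of 8 endothelial markers 6 were higher at an adjusted p under 0.05 by limma and 0 were called, by edgeR likewise 0, and 7 had an unadjusted p under 0.05. *Pecam1*, *Cdh5* and *Vwf* rose by 0.54, 0.45 and 0.67 (limma adjusted p = 0.000564, 0.00413 and 0.00461). Of 7 neutrophil markers 6 were called higher, with *S100a9* and *Csf3r* at 1.87 and 1.33 and *Mmp9* at -0.66 (limma adjusted p = 7.76e-07, 3.02e-05 and 0.116). For T cells 0 of 8 markers were called or had an unadjusted p under 0.05 by limma, and edgeR called 0, with *Cd8a*, *Trac* and *Lck* at 0.04, 0.28 and 0.33, and sums of 1038 to 2854 normalized counts in CTL and 1169 to 2261 in KD tumors. Of 5 B cell markers only *Cd79b* was measured, at 11.4 to 62.9 normalized counts and a log2 fold change of 1.01 (limma adjusted p = 0.0115), a call lost without CTL replicate 2 or 3 or KD replicate 1 or 6. *Fabp4*, *Cidec* and *Plin4*, the adipocyte markers with the highest means, had log2 fold changes of 1.02, 1.15 and 0.72 (limma adjusted p = 0.000935, 0.000186 and 0.215). The 2 adipocyte calls, both higher, became 1 without CTL replicate 2, 5 or 6 or KD replicate 1 or 3. Of 9 skeletal muscle markers 7 were called higher, but 3 without CTL replicate 2, 3 or 5 or KD replicate 1, 3 or 4. *Acta1* and *Atp2a1* rose by 2.15 and 1.71 (limma adjusted p = 0.0119 and 0.0451), and *Myh4* had a log2 fold change of 1.68 (0.0719). The summed muscle markers ranged from 2575 to 13617 normalized counts in CTL and from 5383 to 97131 in KD tumors.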

How the data were processed

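Total RNA of 12 snap-frozen tumors, labelled as biological replicates 1 to 6 of each group, was sequenced. Per the labels and the study's methods, the authors trimmed reads with Trimmomatic 0.36, aligned them with STAR 2.5.2b (mm10 in the submitters' processing notes) and counted unique hits per gene with featureCounts of Subread 1.5.2. The deposited values are a normalized signal, counts divided by DESeq2 size factors, not corrected for gene length. The deposited table has 0 columns that could not be mapped to a tumor.

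Gene names and positions were taken from GENCODE vM21 (GRCm38), which held 15655 of the 15687 identifiers (99.8%). Normalized counts were put on a log2 scale after adding 1. A filter at a mean of 5 removed 0 genes, the lowest mean being 9.28. The test was limma 3.58.1 (R 4.3.3) with a mean-variance trend, on all genes and tumors, with Benjamini-Hochberg adjustment. Called genes had an adjusted p under 0.05 together with a log2 fold change beyond 1 in either direction, as in the study's methods. Single members were also tested by exact two-sided permutation over every arrangement of the labels. Likeness is the Pearson correlation of log2 values after removal of the group means, given as a description.

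The members and lists were chosen with earlier results of these data known. Named are all members, the other galectin genes, *Filip1l*, the 3 genes most like each member, up to 3 called genes in each direction of each pathway list with a few fixed ones, and the 3 markers of each cell type with the highest mean. Alternatives were pseudocounts of 0.5 and 8, no filter or one at 20, scaling to the 75th percentile or the same total, no trend, a replicate block, removal of chromosome medians (genes with a mean of at least 50), leaving out each tumor, and the longest transcript as length. In 9 tumors (4 CTL, 5 KD) whole reads could be recovered from the smallest step between values (100.0% of values within 0.1 of a whole read), and edgeR 4.0.16 was run on these as an alternative chosen after seeing the data. In CTL replicates 1 and 4 and KD replicate 1 this share was 100.0% as well. Their step was judged too close to 1, so they were left out of edgeR and limma was also run on the same 9 tumors. The steps were tested on simulated data. A few results for single genes are not reported here. Plots were made with matplotlib 3.10.9 (Python 3.11.15).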

Additional observations from a re-analysis of the deposited data

Results flagged for a closer look

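In 13 of 116 groups of 6 tumors over 58 genes (11.2%) the highest or lowest tumor lay apart from the others by Dixon's criterion, which by chance marks about 1 group in 20. No member was among them. In KD replicate 1, *Havcr2* (412 normalized counts), *Ptprc* (2464), *Lyz2* (40989.8) and *Mmp9* (1828) were far above the other KD tumors and *Cdh17* (17184) far below them. *Mx1* was far higher in KD replicate 6 (1212 normalized counts), *Tff2* in KD replicate 5 (1000.4) and *Myh4* in KD replicate 3 (18442). Among CTL tumors, *Cd44* (25414 normalized counts) and *S100a9* (138) stood high in replicate 4, *C1qa* (6678) in replicate 3 and *Plin4* (57.0) in replicate 1, and *Cdh5* (665) stood low in replicate 5.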

How the results depend on the processing

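The log2 fold changes of *Lgals1*, *Lgals2*, *Lgals4*, *Lgals8*, *Lgals9*, *Lgals3bp*, *Lgals12*, *Lgalsl* and *Filip1l* kept their direction and their side of the thresholds under every alternative run. Leaving out 1 tumor at a time, *Lgals2* ranged from 2.96 to 3.28, *Lgals4* from 2.08 to 2.37 and *Lgals1* from -0.96 to -0.83. *Lgals3* lost its call when scaled to the 75th percentile (0.99) or the same total (0.96), with chromosome medians removed (0.62), and in 8 of 12 fits without 1 tumor (0.94 to 1.08). The count of called members was thus 2 or 3. *Lgals7* ranged from -0.13 to 0.38 without 1 tumor, and was -0.13, -0.04 and -0.06 without CTL replicates 5 and 6 and KD replicate 6. By edgeR on the 9 tumors with recovered reads, chosen after seeing the data, *Lgals2* was 3.33, *Lgals4* 2.27, *Lgals3* 1.14 and *Lgals1* -0.88. These tumors leave out CTL replicates 1 and 4 and KD replicate 1, and limma on the same 9 gave 3.32, 2.27, 1.14 and -0.85. By edgeR 1667 genes were called, and by that limma fit 1604.

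Tumors with the same replicate number were not alike after removal of the group means (correlations from -0.269 to 0.0990). Tumors with different numbers were not compared in this way, so a shared batch cannot be judged from these values. With the replicate block the called lung markers were 1 and the called macrophage markers 0, and no call of a member changed.

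Counts of called genes in short lists moved as follows. Galectin-binding proteins fell from 1 to 0 with chromosome medians removed, *Nrp1* then being at -0.98. Lung markers fell from 2 to 1 without a trend and ranged from 1 to 4 without 1 tumor. Macrophage markers fell from 1 to 0 with a pseudocount of 8 or by edgeR, and ranged from 0 to 1. Fibroblast markers went from 0 to 1 with the same total, 3 by edgeR and 2 by limma on 9 tumors, and ranged from 0 to 2. B cell markers fell from 1 to 0 with a pseudocount of 8, either scaling, chromosome medians removed or edgeR, and ranged from 0 to 1. Adipocyte markers fell from 2 to 1 with a pseudocount of 8, the same total or chromosome medians removed, and ranged from 1 to 2. Muscle markers fell from 7 to 3 without a trend and 2 by limma on 9 tumors, and ranged from 3 to 8. The cause was not tested.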
